A study of Mus musculus with 2 samples.

Results

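The genes of oxidative phosphorylation, the mitochondrial respiratory chain and its ATP synthase, were followed through red blood cell formation in mouse fetal liver. Members were all genes of the deposited gene list whose symbols begin with Nduf followed by a, b, c, s or v, with Uqcr, with Cox followed by 4 to 8, or with Atp5, the 4 Sdh genes a to d, and the mitochondrially encoded mt-Nd, mt-Co, mt-Atp and mt-Cytb genes. This gave 105 of 27998 genes, of which 92 are encoded in the nucleus and 13 in the mitochondrial genome. Members were picked by symbol, with earlier results of these data known.

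The respiratory chain passes electrons through complexes I to IV and pumps protons across the inner mitochondrial membrane, and complex V, the ATP synthase, uses the gradient to make ATP. Complexes I, III, IV and V are built from subunits of both genomes, whereas complex II, succinate dehydrogenase, is wholly nuclear encoded. Maturing red cells accumulate haemoglobin, make haem partly inside mitochondria, and finally lose these organelles, so the transcripts of both genomes are of interest across this lineage.

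Fetal livers of e13.5 C57BL/6 embryos were dissociated, pooled from 7 embryos, and partly depleted of cells carrying the late red cell protein Ter119, after which some Ter119+ cells were added back. Single cells were profiled by CITE-seq, which reads polyA RNA as unique molecular identifiers (UMIs) and surface proteins as barcoded antibody counts from the same cell, in 1 cDNA library and 1 antibody library. No cell received a treatment and no genotype was altered, so the comparison is between stages of cells within 1 pool. Because there was 1 library and no replicate, no p-value is given, and the 95% intervals in brackets cover counting error only. The cell numbers of the stages reflect the depletion and the add-back as well as the tissue.

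The 7863 cells held 58606632 UMIs, with a median of 5707 per cell, and all their barcodes were shared by both libraries. Stages were set by the antibodies among 6160 cells with low counts of 5 lineage antibodies, and 5950 of these fell into 6 populations. S0-low, S0-medium and S1 were low in Ter119 with rising CD71, the transferrin receptor. S2 had intermediate Ter119 and CD71 above the lower border of S1, a count of 766. The 210 lineage-low cells with intermediate Ter119 and less CD71 were placed in no population. S3 had high Ter119 and high CD71, and S4/S5 had high Ter119 and lower CD71. Wherever 6 values stand in a row, they follow this order from S0-low to S4/S5. The populations held 1387, 1006, 604, 1259, 835 and 859 cells, with median UMIs between 3944 in S4/S5 and 10304 in S0-medium. The smallest total of a cell was between 2510 and 2575 UMIs in every population, so shallower cells are absent from these data. Levels are given as CPM, the UMIs of a gene scaled to the same total in every cell, and counts of this 3′ assay are not scaled by gene length. The 9 erythroid markers found in the gene list had a mean summed level of 2058 CPM in S0-medium and 10502 CPM in S3, and globin rose with them. In S0-low, 6.42% of cells had over 1% of their UMIs from hepatocyte markers, and in S4/S5 5.24% of cells had over 10% of their globin UMIs from embryonic globin genes. The first value was at most 0.497% in the other populations.

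Of the 105 members, 102 had at least 1 UMI and 99 had at least 200 UMIs over the 6 populations, the minimum used for gene-wise ratios. These 99 comprised 86 nuclear and all 13 mitochondrial members. The other 6 were the tissue-restricted cytochrome c oxidase genes Cox6a2, Cox7a1 and Cox4i2, with 37, 16 and 14 UMIs, and Cox7b2, Cox8b and Cox8c, with 0 UMIs. Over all genes, 8082 reached the minimum.

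Promoters are shown for 4 nuclear members on which results below turn, chosen after their values were seen. Atp5g1, Atp5g2 and Atp5g3 encode the same mature subunit c of the ATP synthase rotor ring and fell to different degrees, and Cox6a1, the ubiquitous form of subunit VIa of complex IV, had one of the highest ratios between S3 and S0-medium. The RefSeq windows of assembly GRCm38.p6 run from 250 bases before to 50 bases after the start given in that table and lie on the minus strand at chr11:96075582-96075881 for Atp5g1, chr15:102670998-102671297 for Atp5g2, chr2:73911277-73911576 for Atp5g3 and chr5:115348909-115349208 for Cox6a1. For Atp5g2 and Cox6a1 that start is the outer end of the RefSeq gene, whereas for Atp5g1 it lies 63 bases and for Atp5g3 1138 bases inside the gene. The windows are printed 5′ to 3′, and capitals mark matches to 3 motifs on either strand, the NRF1 core GCGCATGC, the ETS motif CCGGAAG and the GATA motif AGATAA.
Atp5g1: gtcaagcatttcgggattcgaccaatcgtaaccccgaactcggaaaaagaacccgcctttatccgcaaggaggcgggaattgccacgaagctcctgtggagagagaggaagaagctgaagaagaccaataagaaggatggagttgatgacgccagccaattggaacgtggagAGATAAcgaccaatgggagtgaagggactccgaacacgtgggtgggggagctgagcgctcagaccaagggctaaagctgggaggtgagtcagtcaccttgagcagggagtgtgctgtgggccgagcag
Atp5g2: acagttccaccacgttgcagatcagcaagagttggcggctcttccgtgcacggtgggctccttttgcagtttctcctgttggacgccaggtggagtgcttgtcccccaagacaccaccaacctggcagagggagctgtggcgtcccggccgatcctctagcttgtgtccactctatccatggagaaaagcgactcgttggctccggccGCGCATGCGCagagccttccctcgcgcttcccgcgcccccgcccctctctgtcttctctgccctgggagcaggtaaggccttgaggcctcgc
Atp5g3: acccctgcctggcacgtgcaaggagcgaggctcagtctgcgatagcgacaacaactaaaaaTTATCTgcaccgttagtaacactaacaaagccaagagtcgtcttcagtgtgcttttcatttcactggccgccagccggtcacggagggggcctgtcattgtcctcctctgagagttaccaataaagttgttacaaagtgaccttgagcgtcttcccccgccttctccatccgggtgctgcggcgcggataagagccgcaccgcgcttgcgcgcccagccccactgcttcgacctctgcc
Cox6a1: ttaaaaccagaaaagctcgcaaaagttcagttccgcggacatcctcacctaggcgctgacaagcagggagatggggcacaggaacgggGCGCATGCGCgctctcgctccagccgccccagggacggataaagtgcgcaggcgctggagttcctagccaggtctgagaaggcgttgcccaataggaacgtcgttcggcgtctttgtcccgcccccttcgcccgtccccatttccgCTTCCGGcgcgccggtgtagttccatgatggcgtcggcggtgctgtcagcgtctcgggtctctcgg

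The capitals in Atp5g1 and Atp5g3 are 1 GATA match each, read on the other strand as TTATCT in Atp5g3. The run GCGCATGCGC in Atp5g2 and in Cox6a1 holds the NRF1 core on both strands, and Cox6a1 also has 1 ETS match. Windows were found for 76 of 92 nuclear members. The NRF1 core was in 12 of their 82 windows (14.6%), against 2.71% of all 32851 promoter windows. ETS was in 20.7% against 8.86%, and GATA in 7.32% against 11.2%. A match describes letters in the window and does not show that a factor bound there.

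The summed nuclear members took a nearly constant share of the RNA outside globin up to S2 and a somewhat lower one afterwards. The share of the mitochondrial members rose to S1 and then fell further. As a share of all UMIs, the mean level of the 92 nuclear members was 32562, 31641, 30664, 26330, 16986 and 9494 CPM. The 13 mitochondrial members had 45311, 47693, 52464, 43415, 25464 and 12175 CPM. Both series fell steeply in the populations rich in globin, whose genes took 1.41% of UMIs in S0-medium, 38.8% in S3 and 64.9% in S4/S5.

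Outside the globin genes, the nuclear members made up 3.298%, 3.23%, 3.19%, 3.20%, 2.97% and 2.82% of UMIs. The mitochondrial members made up 4.58%, 4.87%, 5.45%, 5.23%, 4.33% and 3.46%. From S0-medium to S3 the nuclear level was 0.537 (0.532 to 0.542) times as high in CPM and 0.918 (0.910 to 0.927) times as high outside globin. The mitochondrial level was 0.534 (0.530 to 0.538) times as high in CPM and 0.891 (0.884 to 0.898) times as high outside globin. The median ratio of single genes over all 8082 was 0.369 in CPM and 0.609 outside globin, beside 0.549 and 0.932 for the nuclear and 0.389 and 0.603 for the mitochondrial members. Per cell, the mean nuclear UMIs went from 336 in S0-medium to 100.4 in S3 and 43.2 in S4/S5, and the mitochondrial UMIs from 470 to 148 and 53.7. Less RNA per cell and a lower rate of capture cannot be told apart in these counts.

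**Figure D1:**
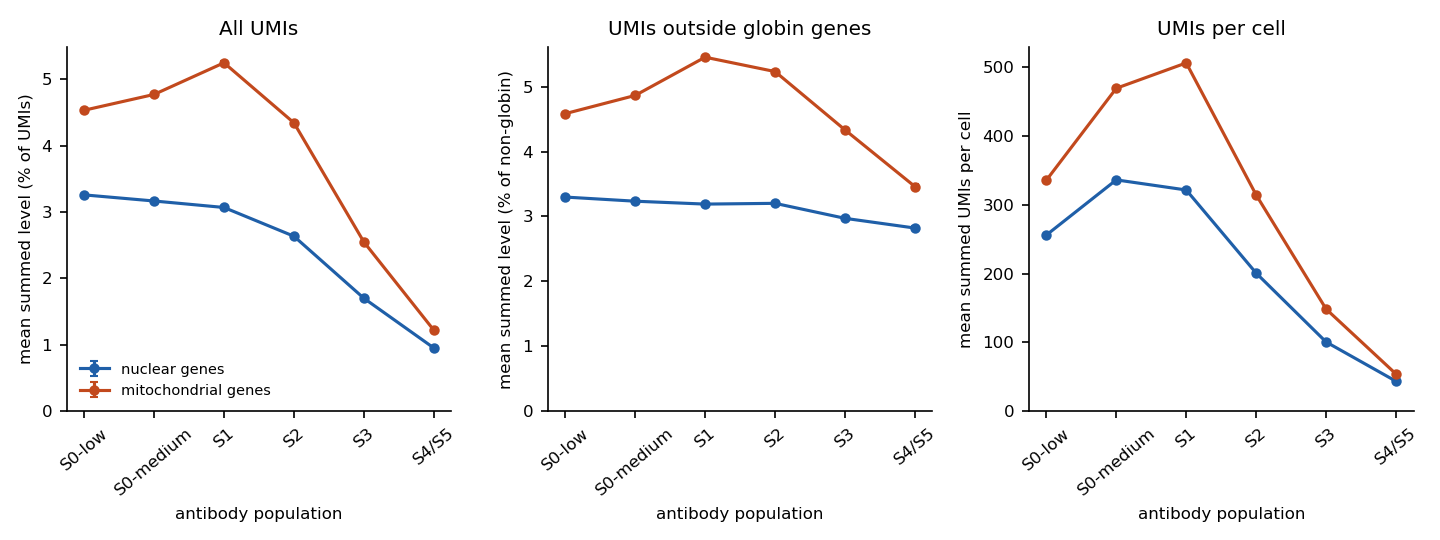
Summed levels of the 92 nuclear and 13 mitochondrial members in the 6 antibody populations, as a percent of all UMIs, as a percent of UMIs outside globin genes, and as UMIs per cell. Points are means over cells, and bars in the first 2 panels are 95% counting intervals, smaller than the points. Outside globin the nuclear line goes from 3.298% to 2.82%, while the mitochondrial line peaks at 5.45% in S1 and ends at 3.46%.

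One filter acted directly on the mitochondrial members. Cells with over 9% of UMIs from mitochondrial genes had been removed, which took 139 of 1526 cells from S0-low, 62 of 1068 from S0-medium, 29 of 633 from S1, 32 of 1291 from S2, 10 of 845 from S3 and 0 of 859 from S4/S5. With these cells returned, the mitochondrial share outside globin was 5.65%, 5.48%, 5.86%, 5.43%, 4.50% and 3.46%. S0-low was then above S0-medium instead of below it, S1 was still the highest, and the fall after S2 was still present.

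Mitochondrial UMIs exceeded nuclear UMIs in every population, by a factor that rose to S1 and S2 and fell afterwards. The ratio of summed mitochondrial to summed nuclear UMIs was 1.31, 1.40, 1.58, 1.57, 1.477 and 1.24. With the cells over the mitochondrial limit returned it was 1.501, 1.47, 1.63, 1.60, 1.53 and 1.24, so the rise from S0-low to S0-medium depended on that limit. S1 over S0-medium was 1.13 (1.12 to 1.14), and S4/S5 over S3 was 0.842 (0.829 to 0.856). In single cells the median ratio was 1.45 in S0-medium, 1.63 in S1, 1.41 in S3 and 1.19 in S4/S5. Cells with fewer mitochondrial than nuclear UMIs made up 13.52% of S0-medium, 3.31% of S1 and 29.6% of S4/S5.

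The comparison of S3 with S0-medium had no settled direction. By summed UMIs, which weight deep cells more, S3 over S0-medium was 1.06 (1.05 to 1.07). The ratio of mean CPM, which weights cells equally, was 1.507 in S0-medium and 1.499 in S3, and with each cell thinned to 2000 UMIs S3 over S0-medium was 0.992 (0.974 to 1.01). The rise to S1 and the fall to S4/S5 were present in both weightings, with mean-CPM ratios of 1.71 in S1 and 1.28 in S4/S5. Without the hepatocyte-marker cells the S0-low ratio was 1.27 instead of 1.31, and without the embryonic-globin cells the S4/S5 ratio was 1.27 instead of 1.24.

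The complexes differed in this ratio. Complex I, the NADH dehydrogenase, had a mitochondrial to nuclear ratio of 1.01 in S0-medium, 1.12 in S1, 0.846 in S3 and 0.563 in S4/S5. Complex III, with mt-Cytb as its 1 mitochondrial subunit, went from 1.17 in S0-medium to 0.969 in S3 and 0.684 in S4/S5. Complex IV, cytochrome c oxidase, was at 2.38 in S0-medium, 2.83 in S1, 2.98 in S2, 2.87 in S3 and 2.47 in S4/S5. All 4 complexes were higher in S1 than in S0-medium. By summed UMIs, complex IV was the 1 whose ratio in S4/S5 was above that in S0-medium. Complex V was at 1.41 in S0-medium, 1.55 in S1, 1.39 in S3 and 1.18 in S4/S5. From S0-medium to S4/S5 this ratio was thus 0.559 (0.541 to 0.578) times as high in complex I and 1.04 (1.01 to 1.06) in complex IV. These intervals were far apart. In mean levels outside globin, S4/S5 was at 1.02 times S0-medium for the mitochondrial and 1.05 times for the nuclear members of complex IV. Complex I had 0.367 and 0.784. The direction in complex IV was therefore not settled. Ndufa4 was counted with complex I by its symbol, although it is also known as a subunit of complex IV.

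**Figure D2:**
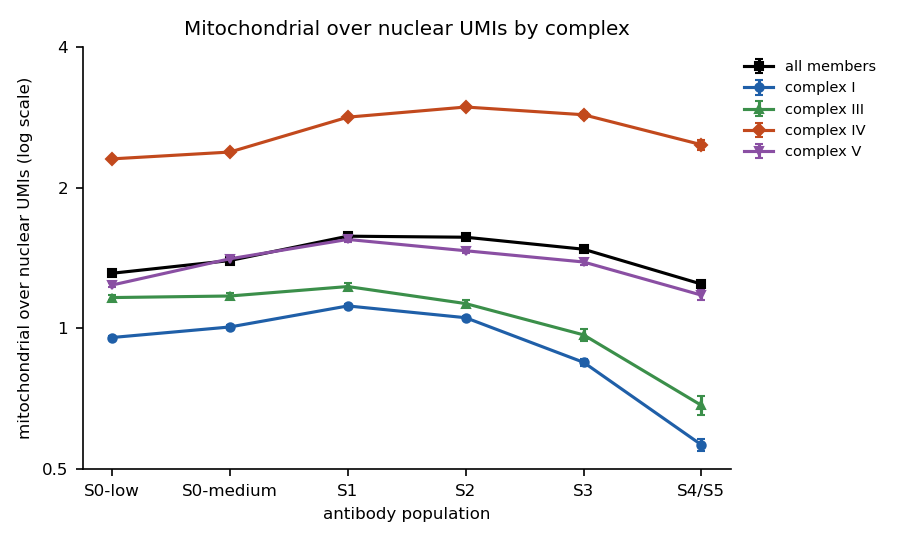
Ratio of summed mitochondrial to summed nuclear UMIs on a log scale in the 6 populations, for all members and for complexes I, III, IV and V, with 95% counting intervals as bars. Complex I ends at 0.563 and complex III at 0.684, whereas complex IV lies between 2.31 and 2.98 throughout.

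The mitochondrial members changed unequally, and mt-Co1 was the 1 mitochondrial member above its S0-medium level in S4/S5 outside globin. Levels of single mitochondrial members are given outside globin from here. mt-Co1, the catalytic core of complex IV, was at 4502, 4577, 5284, 5835, 6764 and 6928 CPM. It was highest in the latest population, at 1.51 times its S0-medium level, whereas in CPM over all UMIs it was 0.526 times as high, from 4463 to 2346. mt-Co3, also of complex IV, was at 8928 CPM in S0-medium, 11379 in S2, 10156 in S3 and 8289 in S4/S5, so it rose and came back. mt-Co2, the copper-bearing subunit that receives electrons from cytochrome c, went from 4767 in S0-medium to 4448 in S3 and 3456 in S4/S5.

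Of the 7 complex I transcripts, 6 were at least 1.5 times lower in S3 than in S0-medium outside globin, beside 54.6% of all genes. mt-Nd1 was at 6385, 6585, 7271, 6458, 3968 and 2339 CPM. mt-Nd2 was at 1345, 1447, 1544, 1140, 585 and 280.2 CPM, so that S4/S5 had 0.194 times its S0-medium level. Both encode membrane subunits, and both were below every earlier population in S3 and S4/S5. mt-Nd4 ended at 0.485 times its S0-medium level, mt-Cytb at 0.492 times and mt-Atp6, the most abundant member, at 0.654 times, from 14680 to 9606 CPM.

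The 5 other mitochondrial members were sparse. mt-Nd5, mt-Nd3, mt-Nd4l, mt-Nd6 and mt-Atp8 had 216, 110, 86.7, 20.4 and 14.3 CPM in S0-medium, and their S3 to S0-medium ratios lay between 0.295 and 0.563. mt-Atp8 (MT 7766 to 7969 in GRCm38.p6) overlaps mt-Atp6 (MT 7927 to 8607), and mt-Nd4l (MT 9877 to 10173) overlaps mt-Nd4 (MT 10167 to 11544). Each pair is carried on 1 transcript, so a read of the 3′ end can fall in the downstream gene.

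As shares of the mitochondrial members' UMIs, which do not depend on globin, mt-Co1 took 9.76%, 9.27%, 9.61%, 10.5%, 13.6% and 18.5% (18.1 to 18.8 in S4/S5). mt-Nd2 took 3.02%, 3.03%, 2.87%, 2.43%, 1.80% and 1.06% (0.972 to 1.16 in S4/S5). mt-Nd1 went from 13.46% in S0-medium to 7.61% in S4/S5, and mt-Co3 from 18.5% to 23.4%. mt-Co2 stayed between 9.74% and 10.2%. The mt-Co1 share of S4/S5 was 1.99 times that of S0-medium, and that of mt-Nd2 0.351 times. With the mitochondrial limit lifted the same values were 1.998 and 0.356, and with no lineage filter they were 1.62 and 0.595.

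Depth moved with these shares inside the late populations. In S4/S5 the shallower cells had 20.0% mt-Co1 and the deeper cells 17.5%, in S3 16.1% and 12.7%, and in S0-medium 9.43% and 9.20%. The deeper cells of S4/S5 were above both groups of S0-medium. These groups were not matched for depth, as median UMIs were 3944 in S4/S5 and 10304 in S0-medium. The 45 S4/S5 cells with embryonic globin had 14.6% (12.6 to 16.8) mt-Co1 and 1.84% mt-Nd2. Among all kept cells, mt-Co1 took 10.7% in those with a CD41 antibody count over 100, 11.1% in those with a CD11b count over 100, and 13.48% in 108 cells with over 10% hepatocyte-marker UMIs.

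**Figure D3:**
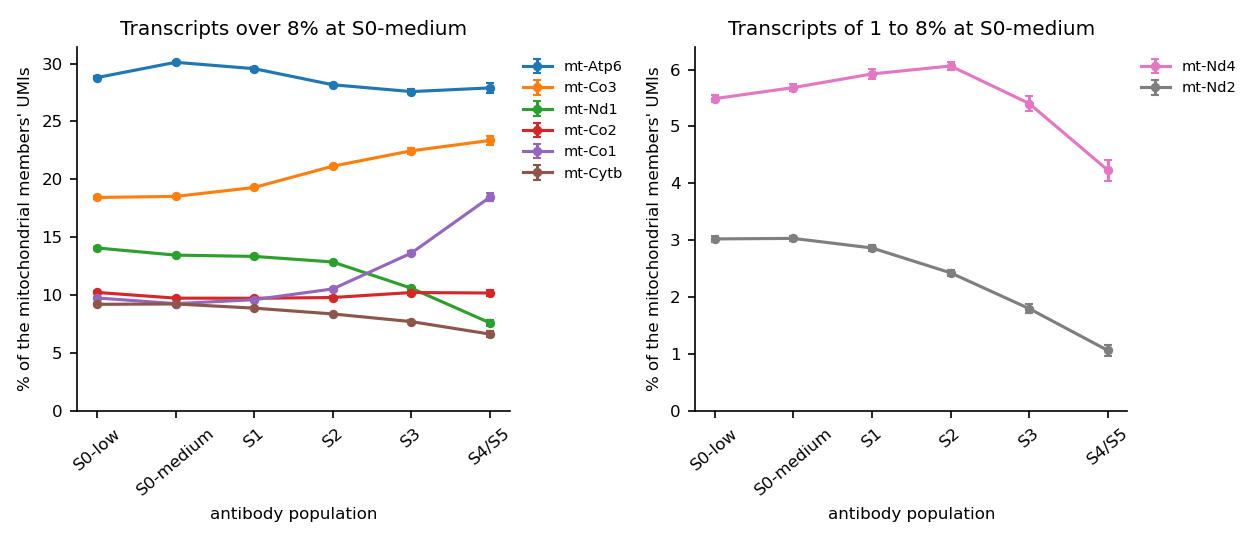
Share of the 13 mitochondrial members' UMIs taken by each transcript of at least 1% in S0-medium, by population, with 95% exact binomial intervals. mt-Co1 goes from 9.27% in S0-medium to 18.5% in S4/S5, while mt-Nd1 goes from 13.46% to 7.61% and mt-Nd2 from 3.03% to 1.06%.

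The course was also read along the antibody counts without stage borders. When the 6160 lineage-low cells were ordered by Ter119 and divided into 10 parts of 616 cells, the nuclear level outside globin was 31962 CPM in the lowest part, 32480 in the fifth and 28390 in the highest. The mitochondrial level was 47839, 53213 and 36268 CPM. The mt-Co1 share was 9.48% in the lowest part, 9.70% in the fifth, 11.4% in the seventh and 17.1% in the highest, and mt-Nd2 fell from 2.97% to 1.25%.

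CD71 ordered the cells differently on either side of Ter119. Among cells with low Ter119, the mitochondrial to nuclear ratio was 1.46 in the lowest of 10 parts by CD71, 1.24 in the fourth and 1.58 in the highest, so it fell before it rose. Among cells with high Ter119, it was 1.52 in the highest part, with a median CD71 count of 2605, and 1.10 in the lowest, with a median of 59.5. The lowest part of the high-Ter119 cells had 20.4% mt-Co1 and 0.989% mt-Nd2, against 11.8% and 2.06% in the highest. In low-Ter119 cells mt-Co1 stayed between 9.13% and 10.4% in all 10 parts by CD71.

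**Figure D4:**
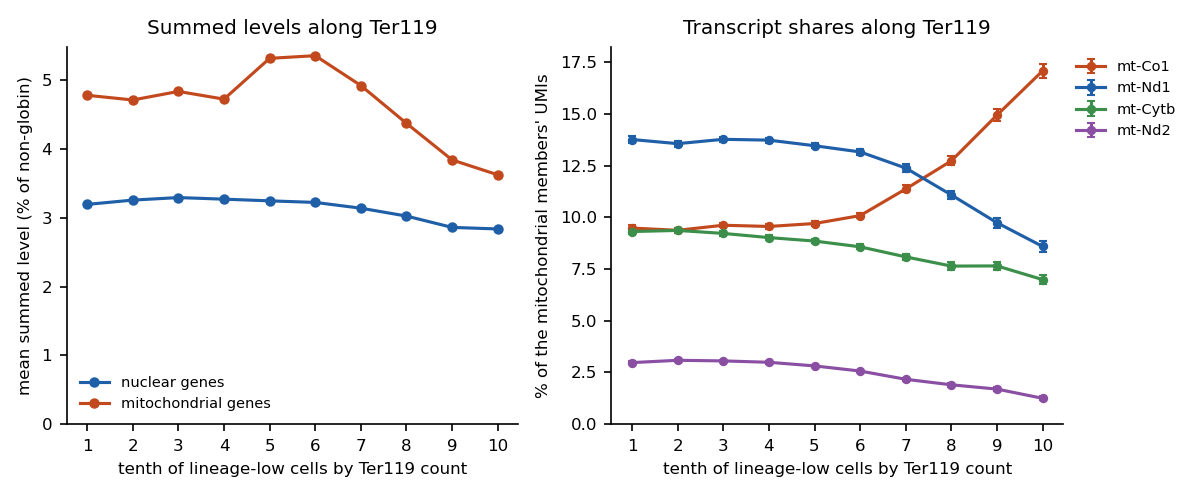
Lineage-low cells in 10 parts of 616 by Ter119 count. The left panel shows the mean summed level of the nuclear and mitochondrial members as a percent of UMIs outside globin, and the right panel the shares of 4 mitochondrial transcripts with 95% exact binomial intervals, where mt-Co1 reaches 17.1% in the highest part.

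Gene by gene, no member was at least 1.5 times higher in S3 than in S0-medium in CPM, and 70 of 99 were at least 1.5 times lower. The same thresholds were passed by 8.48% and 76.1% of all tested genes, so the share of members that were lower was near that of all genes. Outside globin, 7 members were higher and 28 were lower, against 16.9% and 54.6% of all genes. The 7 were all nuclear, and the 28 comprised 21 nuclear and 7 mitochondrial members. By the medians above, the nuclear members lay above all genes and the mitochondrial members near them. The mitochondrial median gives the sparse members equal weight, and the summed mitochondrial level was 0.891 times as high.

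More members were lower in the CPM steps after S1 than in those before it, and the same held for all genes. In CPM, 1 member was higher and 1 lower in S0-medium than in S0-low (5.53% and 12.3% of all genes), 0 and 2 in S1 than in S0-medium (3.53% and 9.74%), 0 and 17 in S2 than in S1 (5.10% and 40%), 0 and 59 in S3 than in S2 (4.37% and 64.3%), and 0 and 83 in S4/S5 than in S3 (3.23% and 66.7%). Of these CPM counts, the last was the only one in which the members' share was above that of all genes. Outside globin, 0 and 9 members passed from S1 to S2 (9.32% and 27.2% of all genes), 1 and 14 from S2 to S3 (11.9% and 27.6%), and 1 and 8 from S3 to S4/S5 (16.8% and 23.6%). Of these 8, 6 were mitochondrial. The 1 member higher in the first step was Ndufa4l2, a hypoxia-induced relative of Ndufa4 with 202 UMIs in all, and the 1 lower was Atp5sl.

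Among the nuclear members the changes between S0-medium and S3 ranged from 0.157 to 1.73 outside globin. By complex, the summed nuclear level outside globin was 0.894 (0.879 to 0.909) times as high in complex I, 0.494 (0.463 to 0.527) in complex II, 1.001 (0.974 to 1.03) in complex III, 1.03 (1.01 to 1.05) in complex IV and 0.905 (0.889 to 0.921) in complex V. Complex II and the 7 complex I assembly factors, at 0.400 (0.361 to 0.442), stood lowest. Sdhd and Ndufaf4 were the most abundant genes of these sums in S0-medium and weighed most in them. The 7 core subunits of complex I were at 0.763. The 31 genes counted as accessory by symbol, Ndufa4 and Ndufa4l2 among them, were at 0.917.

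**Figure D5:**
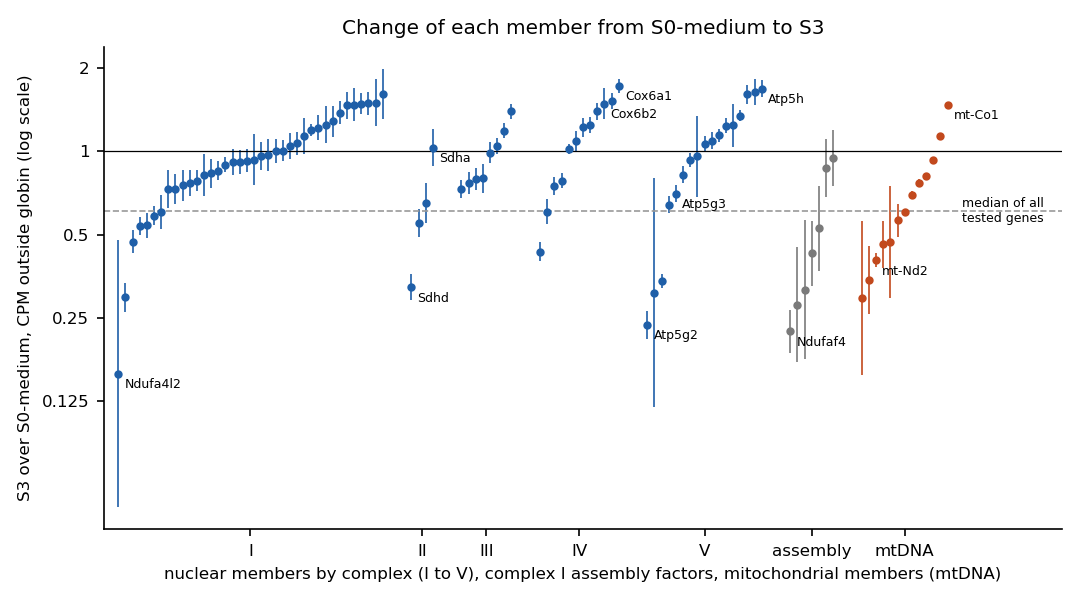
Ratio of S3 to S0-medium in CPM outside globin, on a log scale, for each of the 99 tested members with 95% counting intervals, ordered within nuclear complexes I to V, complex I assembly factors and the mitochondrial members. The dashed line is the median of all tested genes at 0.609. Cox6a1 has the highest ratio at 1.73 and Ndufa4l2, with few UMIs and a wide interval, the lowest at 0.157.

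Among nuclear members counted with complex I by symbol, Ndufa4 and Ndufb9 were the most abundant. Ndufa4 was at 1106, 934, 1002, 1142, 1118 and 806 CPM outside globin, and Ndufb9, an accessory subunit, at 570, 649, 678, 746, 581 and 416. Both peaked in S2 and were lowest in S4/S5. The core subunit Ndufv1, which carries the NADH binding site, was 1.478 (1.29 to 1.69) times as high in S3 as in S0-medium and returned to 107 CPM in S4/S5, beside 103 in S0-medium. Ndufb7, an accessory subunit, was at 1.49 (1.37 to 1.62).

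Of the 7 assembly factors, which help build complex I without remaining in it, 5 were at least 1.5 times lower outside globin, beside 54.6% of all genes. Ndufaf4 was at 236, 252, 199, 103, 56.4 and 77.9 CPM, a ratio of 0.224 (0.187 to 0.267) between S3 and S0-medium. All 7 together were at 513 CPM in S0-medium and 205 in S3. Ndufaf6 was at 0.279 (0.173 to 0.450). It was at 27.8 CPM in S4/S5 and 13.9 in S3, the 1 member at least 1.5 times higher in that last step. Of the nuclear members' UMIs it took 0.170% in S0-medium, 0.0620% (0.0463 to 0.0813) in S3 and 0.0916% (0.0635 to 0.128) in S4/S5. The last step thus had overlapping intervals and stayed below S0-medium. Ndufaf1 and Ndufaf3 were at 0.871 and 0.950, with intervals that include 1. Those 2 were named after their values were seen.

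Complex II links the citric acid cycle to the chain, and its subunits parted. Sdhd, a membrane anchor, was at 514, 551, 517, 301, 178 and 132 CPM outside globin. All 4 genes together were at 1066 CPM in S0-medium and 526 in S3. Sdhb, the iron-sulfur subunit, went from 278 in S0-medium to 153 in S3, and Sdhc, the other anchor, from 127 to 82.7. Sdha, the flavoprotein with the active site, was at 109.7 in S0-medium, 144 in S2, 113 in S3 and 107 in S4/S5. The S3 to S0-medium ratio was 0.322 (0.289 to 0.359) for Sdhd and 1.03 (0.882 to 1.20) for Sdha, so the subunits of 1 complex did not keep their proportions. In CPM over all UMIs Sdha was at 0.604, as every Sdh gene was lower there.

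In complex III, 0 of 8 nuclear members passed 1.5 in either direction outside globin, beside 16.9% higher and 54.6% lower over all genes. Uqcrh, the hinge protein, went from 652 CPM in S0-medium to 777 in S3 and 838 in S4/S5. Uqcrb, another small subunit, went from 528 to 737 and 598.

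Complex IV held the highest ratio of a nuclear member. Cox6a1 was at 528, 521, 565, 728, 900.0 and 907 CPM outside globin, a ratio of 1.73 (1.63 to 1.84) between S3 and S0-medium. In CPM over all UMIs it was 0.971 (0.918 to 1.03), an interval that includes 1. Cox4i1, the ubiquitous subunit IV and the most abundant nuclear member, lay between 1597 and 1733 CPM outside globin in all 6 populations. Cox8a, the smallest subunit, went from 900.0 in S0-medium to 706 in S3.

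The isoform pairs of complex IV were read as shares of their family's UMIs. Cox4i1 made up 99.98% of subunit IV, Cox6a1 99.8% of its pair, and Cox7b and Cox8a 100% of theirs, with 0 UMIs of Cox7b2, Cox8b and Cox8c, which allows shares of up to 0.0193% for Cox7b2 and 0.00912% for each Cox8 form. Cox6b2, known as the testis form of subunit VIb, was the exception. It made up 20.8% of the Cox6b1 and Cox6b2 UMIs over the populations, with a UMI in 43.8% of cells. Its level outside globin was 91.0, 120.7, 109, 125.0, 180.0 and 247 CPM. It was highest in S4/S5, at 2.05 times S0-medium, whereas in CPM over all UMIs it was 0.637 times as high. In hepatocyte-marker cells it was at 9.598 CPM of all UMIs, in CD11b cells at 30.9, and in CD41 cells at 41.7, against 118 in S0-medium. Cox7a2 held 62.7% and Cox7a2l, a factor of respiratory supercomplexes, 37.3% of their family, and they parted with stage, at 1.24 (1.17 to 1.33) and 0.604 (0.544 to 0.671) between S3 and S0-medium. Cox6b1 and Cox7b were at 1.40 and 1.23.

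In complex V the 3 genes of subunit c, whose promoters are printed above, did not change alike. Atp5g1 was at 1669, 1628, 1369, 945, 552 and 539.7 CPM outside globin. Atp5g2 was at 795, 645, 503, 255, 152 and 203 CPM, and Atp5g3 at 687, 659, 655, 608, 464 and 359. The S3 to S0-medium ratios were 0.339 (0.320 to 0.360), 0.236 (0.210 to 0.266) and 0.703 (0.655 to 0.754), and these intervals do not meet. Of the family's UMIs, Atp5g3 held 22.5% (22.0 to 23.0) in S0-medium and 34.6% (33.1 to 36.0) in S3, while Atp5g2 went from 22.7% to 15.3%. Atp5g1 stayed the most abundant of the 3, at 54.8% and 50.2%. Whether reads shared with near-identical copies were split among them was not tested.

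Of the 17 nuclear members counted with complex V by symbol alone, 3 were at least 1.5 times higher outside globin and 4 lower. Between S3 and S0-medium, 16.9% of all genes were higher and 54.6% lower by the same measure. Atp5b, the catalytic beta subunit, was at 1113, 1097, 1264, 1419, 1477 and 1505 CPM outside globin, at 1.35 (1.29 to 1.41) between S3 and S0-medium. Atp5h, of the peripheral stalk, was at 1.69 (1.57 to 1.81) and Atp5j2, of the membrane part, at 1.61 (1.482 to 1.75) times S0-medium in S3. With Cox6a1, these are 3 of the 7 members at least 1.5 times higher, and the others were Atp5e (1.64), Ndufa3 (1.61), Cox6c (1.52) and Ndufa1 (1.503), named after their values were seen. In CPM over all UMIs Atp5h was at 0.986 (0.923 to 1.05). Atp5sl, listed in RefSeq as Dmac2 and placed in complex V only by its symbol, was at 0.309 (0.119 to 0.799). It had 319 UMIs in all and is among the 4 lower.

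Genes around the chain were counted from lists in the same way. Outside globin, 0 of 20 tested genes of mitochondrial biogenesis and mitochondrial DNA expression were at least 1.5 times higher in S3 than in S0-medium and 18 were lower, with a median of 0.372. Over all genes 16.9% were higher and 54.6% lower, with a median of 0.609. Tfb2m, a mitochondrial transcription factor, was at 0.170 (0.0805 to 0.357), and Esrra, a nuclear receptor that drives respiratory genes, at 0.233 (0.0763 to 0.711). Gabpa and Nrf1, transcription factors of nuclear respiratory genes, were at 0.796 (0.583 to 1.09) and 1.13 (0.940 to 1.36).

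Of 36 assembly factors other than those counted above, 1 was higher and 29 were lower, with a median of 0.409 beside 0.609 for all genes. Sco2, which delivers copper to complex IV, was at 0.169 (0.0900 to 0.317) and Bcs1l, which assembles complex III, at 0.208 (0.106 to 0.405). Cox11, another copper factor, was at 1.21 (0.998 to 1.46), and Pet100, a complex IV factor, at 2.40 (1.76 to 3.28). Of 17 citric acid cycle genes, 1 was higher and 11 were lower, with a median of 0.546, near the all-gene values of 54.6% lower and 0.609. The succinyl-CoA synthetase genes Suclg2 and Suclg1 were at 0.384 and 0.396, Idh3g of isocitrate dehydrogenase at 1.25 (1.07 to 1.477) and Ogdh of oxoglutarate dehydrogenase at 1.51 (1.26 to 1.82).

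Of 14 carriers around the chain, 3 were higher and 8 were lower, shares near the 16.9% and 54.6% of all genes, with a median of 0.459. Slc25a4, which exchanges ADP and ATP across the inner membrane, went from 378 to 78.4 CPM outside globin, and Dhodh, a pyrimidine enzyme that feeds the chain, was at 0.230. Atpif1, the inhibitor of ATP hydrolysis by complex V, went from 1434 to 2828 CPM, a ratio of 1.97 (1.91 to 2.04). Ucp2, an inner membrane carrier, went from 88.0 to 332 CPM, a ratio of 3.77 (3.35 to 4.25).

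Most lists of markers of other cell types were higher outside globin in S4/S5 than in S0-medium, and the endothelial and lymphoid lists were lower. The 12 hepatocyte markers had a median of 3 UMIs per cell in every population from S0-medium to S4/S5, which as a median level outside globin was 283 CPM in S0-medium, 1084 in S3 and 2716 in S4/S5. The 9 myeloid markers had mean levels of 75.1, 278 and 628 CPM outside globin in these 3 populations and the 6 endothelial markers 136, 37.4 and 55.6. Megakaryocyte markers had 47.7, 188 and 275 CPM, macrophage markers 9.75, 38.0 and 70.2, and early progenitor markers 51.1, 76.8 and 164. Lymphoid markers were at 1.94, 4.27 and 0.930 CPM. Mean UMIs per cell went from 0.480 in S0-medium to 0.346 in S4/S5 for megakaryocyte markers. They went from 0.0954 to 0.0838 for macrophage, 0.540 to 0.221 for early progenitor and 0.682 to 0.796 for myeloid markers. In S0-low the hepatocyte mean was 7535 CPM and the myeloid mean 574. No gene of the hepatocyte or myeloid list was at 0 in any population. The part of such RNA in the members' levels was not tested. Hepatocyte-marker cells themselves had the highest levels, with 39141 CPM for the nuclear and 71339 CPM for the mitochondrial members and a ratio of 1.84. Cells with CD41 and CD11b counts over 100 had ratios of 1.77 and 1.91, above all 6 populations.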

How the data were processed

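The authors aligned the reads to mouse build mm10 and counted UMIs per gene and cell with Cell Ranger, and the deposited files hold unnormalized counts of UMIs for genes and of barcodes for antibodies. The submitters' processing notes also name Seurat. Members and gene lists were chosen with earlier results of these data known. Filters on genes per cell (300 to 5000) and mitochondrial UMIs (9% or less) were applied, and Scrublet in scanpy 1.11.5 removed doublets (128 called, expected rate 6%), which left 7244 cells. Each antibody's counts were put on a centered log ratio scale over all cells. Lineage-low cells had summed lineage counts of at most the median plus 2 scaled MADs (73.6). Ter119 was divided by k-means into 3 classes, with CD71 in 3 classes at low Ter119 and 2 at high Ter119. At intermediate Ter119, cells above the upper CD71 border of the low-Ter119 cells were S2. Levels are means over cells of CPM, of all UMIs or of UMIs outside globin genes, and summed ratios used summed UMIs. Counts of a 3′ assay are not scaled by length. Ratio intervals used a weighted Poisson variance on the log scale and shares used exact binomial intervals. Limits for 0 UMIs are 3 counts. The ratio and interval code was tested on simulated data. No test between groups was possible with 1 library.

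Genes named were all mitochondrial members, the 2 most abundant nuclear members of each complex, the 5 largest and 5 smallest nuclear S3 to S0-medium ratios in CPM with at least 200 UMIs, the paralog families, the 4 Sdh genes, and the 2 largest and 2 smallest ratios of each pathway list. Gene positions came from RefSeq GRCm38.p6, and all 105 members had one. Alternatives varied the mitochondrial limit, doublets, denominator, antibody scale, classes, borders, other cell types, depth and lineage filter. Python 3.11.15, numpy 2.4.6 and scipy 1.17.1 were used.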

Additional observations from a re-analysis of the deposited data

How the results depend on the processing

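No paired analysis was possible because the cDNA and the antibody library hold the same cells and no groups of samples were compared. Values below are S3 over S0-medium for the summed nuclear and the summed mitochondrial CPM, in that order, beside 0.537 and 0.534 in the report. They were 0.5495 and 0.5034 with no mitochondrial limit, 0.4755 and 0.5675 with a limit of 5%, 0.5513 and 0.5510 with doublets kept, 0.5834 and 0.6169 from summed UMIs, 0.2987 and 0.3158 per cell, 0.9183 and 0.8907 outside globin, and 0.9143 and 0.8863 outside globin and mitochondrial genes. Other stage borders gave 0.5508 and 0.6165 (log10 antibody counts), 0.4131 and 0.4311 (centered log ratio within each cell), 0.5279 and 0.5698 (Gaussian mixture) and 0.5292 and 0.5232 (border cells left out). They were 0.5438 and 0.5424 without embryonic-globin cells and 0.5669 and 0.5860 with no lineage filter. A lineage limit on the log1p scale gave 0.5429 and 0.5402, and returning the cells over the mitochondrial limit to the same gates gave 0.5433 and 0.4982, both chosen after seeing the data.

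The mitochondrial to nuclear ratio, S3 over S0-medium, was 1.040 with no mitochondrial limit, 1.176 with a limit of 5%, 1.157, 1.083 and 1.131 with log10, within-cell and mixture borders, 1.112 with no lineage filter and 1.038 with the cells returned. It was below 1 in mean CPM, which also weights cells equally, at 0.9699 outside globin and 0.9693 outside globin and mitochondrial genes. In thinned cells it was 0.9918, and its interval, given above, includes 1. S4/S5 over S3 was 0.8142, 0.8642, 0.8220, 0.8234, 0.8613, 0.9626 and 0.8149 with no limit, the 5% limit, log10 borders, border cells left out, thinning, no lineage filter and the cells returned. Of the named genes at least 1.5 times lower in CPM, Cox4i1 and Sdha moved above 1 outside globin, to 1.022 and 1.030. Outside globin and mitochondrial genes Cox4i1 and Sdha were at 1.017 and 1.025. No tested member was above 1 in CPM, where the highest was 0.986. Every member above 1 outside globin, Cox6a1 and Atp5h among them, therefore changed sides with the denominator. The smaller denominator is part of how those values are built, and the cause of the other moves was not tested.

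At a fold of 2, the members counted as lower were 0, 0, 5, 20 and 35 in the 5 successive steps and 45 for S3 over S0-medium, against 1, 2, 17, 59, 83 and 70 at 1.5. The share of all genes past a fold of 2 was not counted, so the counts at 2 have no background beside them. At 1.5 outside globin the members counted as lower were 9, 14 and 8 in the last 3 steps and 28 for S3 over S0-medium. Those counted as higher were 1, 1 and 7 from S2 to S3, S3 to S4/S5 and S0-medium to S3. The shares of all genes at 1.5 are given with the counts above. One pool and 1 library allow no estimate of the spread between animals. Median UMIs per cell rose from 5988 in S0-low to 10304 in S0-medium and then fell with stage to 3944 in S4/S5.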
